A study of Mus musculus with 8 samples.

Results

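The array used for this study carries probes laid across stretches of the mouse genome where long intergenic non-coding RNAs (lincRNAs) were thought to be made. Whether these stretches lie apart from annotated genes was not checked here, so some may overlap known genes. These lincRNA-region probes have no gene name in the files, only a genome interval and a suffix, F or R, given by the array's design. Whether the suffix names the strand of the transcript or of the probe is not given in the sources used here, so "strand F" and "strand R" below repeat the suffix. All probes with the prefix A_30_P and such an interval as their name were taken, which gave 16181 of the 55681 probes that were not controls (29.1%). They stand for 4607 intervals with a strand, or 3540 intervals when both strands are counted as 1. Of these, 1067 had probes on both strands, 1251 on F only and 1222 on R only. A strand of an interval had 1 to 10 probes (median 3), and each probe was printed once on an array. Coordinates are those of the files, on the mouse build mm9, and the intervals ranged from 62 to 7128487 bp in length. Since 2101 of the 3540 intervals overlapped another, neither probes nor intervals are independent of each other.

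The cells were BV-2, a microglia-like mouse line made by retroviral transformation, so its findings need not hold for microglia in the brain. Control cells got no treatment, and the other groups got lipopolysaccharide at 1 µg/mL (LPS), HF at 100 µg/mL, or both agents (LPS+HF), each for 24 h. HF is what hexane takes up from Amauroderma rugosum, a mushroom. LPS is a cell wall component of Gram-negative bacteria that macrophages sense through Toll-like receptor 4. Each group had 2 arrays, 8 in all, and the submitters call them biological replicates. The labels do not say which cultures the RNA came from, so the p-values measure only the spread between these samples.

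Long intergenic non-coding RNAs are transcripts without a protein product that lie apart from coding genes, and many are spliced and polyadenylated like messenger RNAs. Most are made at lower levels and in fewer cell types than messenger RNAs. In macrophages, stimulation through Toll-like receptors is known to switch some of them on and others off, and a few act on the transcription or the stability of inflammatory messenger RNAs. A signal from a probe shows RNA of its sequence, not the start, the end or the splicing of a transcript.

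Control replicate 1 stood apart from the other 7 arrays. Probes printed several times on it had a median coefficient of variation of 57.4%, against 4.85% to 8.72% on the others. Over the lincRNA-region probes, replicate 1 minus replicate 2 had an SD of 0.94 log2 in control, 0.37 in LPS, 0.58 in HF and 0.41 in LPS+HF. One estimate of spread was shared by all 8 arrays, which makes the errors too small against control and too large between the other groups, so each count of calls is also given below without each array in turn. On the slide, HF arrays filled a row of their own and LPS arrays columns of their own, so slide row and HF, and slide column and LPS, cannot be told apart. The 75th percentile of brightness was 247 to 286 without HF and 346 to 527 with HF, and every level below is the log2 brightness minus that percentile of its array. On each array, 10 or 11 of 11 microglia and macrophage markers had a probe above background. So did 2 to 4 of 5 neuron markers, 2 or 3 of 4 astrocyte markers, 3 of 4 oligodendrocyte markers, 1 or 2 of 4 fibroblast markers and 1 to 3 of 3 endothelial markers. No marker of those 5 other cell types passed the test in any of the 5 comparisons, with 1 to 5 tested probes each. Of 16 tested microglia and macrophage probes, 1 rose and 3 fell in LPS minus control, and 2 fell in HF minus control. In LPS+HF minus LPS 2 rose and 2 fell, 1 rose in LPS+HF minus HF, and 2 had a positive interaction. In that order, 10.5%, 0.682%, 6.05%, 1.06% and 0.0527% of all tested probes were called.

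Fewer lincRNA-region probes gave a signal than other probes did. On single arrays 33.4% to 41.4% of them were well above background, against 53.7% to 60.5% of the other 39500 probes. Apart from 91 probes set aside for their place on the array, both arrays of a group were above background for 4859 lincRNA-region probes in control (30.2%), 5776 in LPS (35.9%), 5534 in HF (34.4%) and 5699 in LPS+HF (35.4%). The same shares of the other probes were 51.8%, 57.2%, 56.5% and 57.0%. Control therefore had the lowest count in both kinds of probe. With at least 1 array of a group above background, the counts were 6803, 6872, 7092 and 7000, which lie closer together. Control replicate 1 had the lowest share of all arrays, and its part in the low control count was not tested. The depth of such data is the brightness itself, and a probe below background has a bound, not a level of 0.

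**Figure D1:**
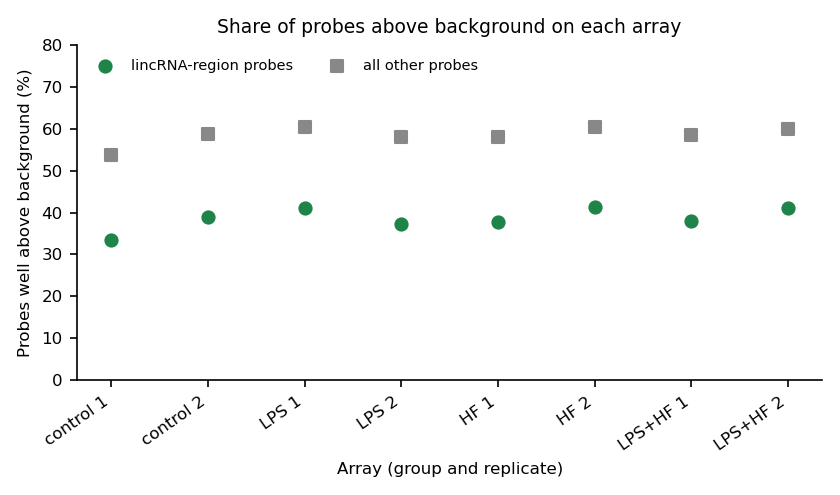
Share of probes well above background (percent) on each of the 8 arrays, for the 16181 lincRNA-region probes (circles) and the 39500 other probes (squares). On every array the lincRNA-region probes lie lower, between 33.4% and 41.4%, and control replicate 1 has the lowest share of both kinds.

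A probe entered the test once any group had both its arrays well above background. A group of 91 lincRNA-region probes in spot rows 1 to 70 that were above background on both arrays of HF or of LPS+HF, but not on both arrays of control or LPS, was left aside. This left 6457 tested lincRNA-region probes (3179 on F and 3278 on R) in 2479 of the 3540 intervals, while 9633 were above background in no group. Of probes above background in 1 group alone, the filter itself fixed part of the difference between that group and the others. Of the calls described below, 28 of those between LPS and control, 1 between HF and control, 25 between LPS+HF and LPS and 1 between LPS+HF and HF were such probes, high in that group. The same holds in part for probes that passed only through 2 groups, both on the higher side of a treatment step, such as LPS and LPS+HF. The counts just given do not include these. Where probes of either kind are named, their values for such a comparison are a description and no p is given. A tested share of 40.5% (with the 91) compares with 60.2% of the other probes. Of the 6457, 4265 (66.05%) were above background in all 4 groups, against 82.1% of the other tested probes. LPS, HF and LPS+HF but not control held 741, and 142 were above background in control alone, 207 in LPS alone, 105 in HF alone and 147 in LPS+HF alone. The tested share was 37.0% for probes of the shortest intervals (up to 5176 bp), and 40.5%, 42.2% and 40.9% in 3 further classes of rising length. Across chromosomes it ran from 32.2% on chromosome 9 to 48.4% on chromosome 17.

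Signal was often limited to some of the probes of an interval. Of the 3348 interval strands with 3 or more probes, all probes were detected in 422, some in 2048 and none in 878. Among the 1067 intervals with probes on both strands, both strands were detected in 647, F alone in 170, R alone in 163 and neither in 87. How far probes of an interval moved together depended on the measure. Over 1691 interval strands, Pearson's r between the log2 differences of a pair of probes was 0.28 for LPS minus control and 0.494 for LPS+HF minus LPS. Between the strands of 647 intervals it was 0.05 and 0.168. The share of pairs with the same sign differed less: 57% on the same strand and 57.3% on opposite strands for LPS minus control, and 72.1% and 69.1% for LPS+HF minus LPS. These are descriptions across probes, which share arrays, slide position and sequence composition and are no replicates.

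The first comparison, LPS minus control, asks which of these RNAs move in stimulated cells. Of the 6457 tested lincRNA-region probes, 173 rose and 193 fell, together 366 (5.67%), in 254 intervals (limma, Benjamini-Hochberg adjusted p under 0.05 over all 30344 tested probes). Over all tested probes 10.5% were called (4.62% higher, 5.84% lower), and 11.8% of those outside the lincRNA regions. The lincRNA-region share was thus the lower one. Among probes above background on all 8 arrays it was 8.3%, against 17% of the others. Between replicates, the spread of lincRNA-region probes was wider than over all probes in LPS, HF and LPS+HF. In control it was narrower (SD 0.942 against 0.982 log2). What part spread had in the lower share of lincRNA-region probes was not tested. Their median difference was -0.09 log2, against -0.07 over all probes. The arrays of the 2 groups did not overlap for 3117 of these probes (48.3%), against 56.7% of all probes. Both groups were above background on both arrays for 252 of the 366. In bulk samples like these, fewer cells making an RNA and less of it per cell cannot be told apart.

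**Figure D2:**
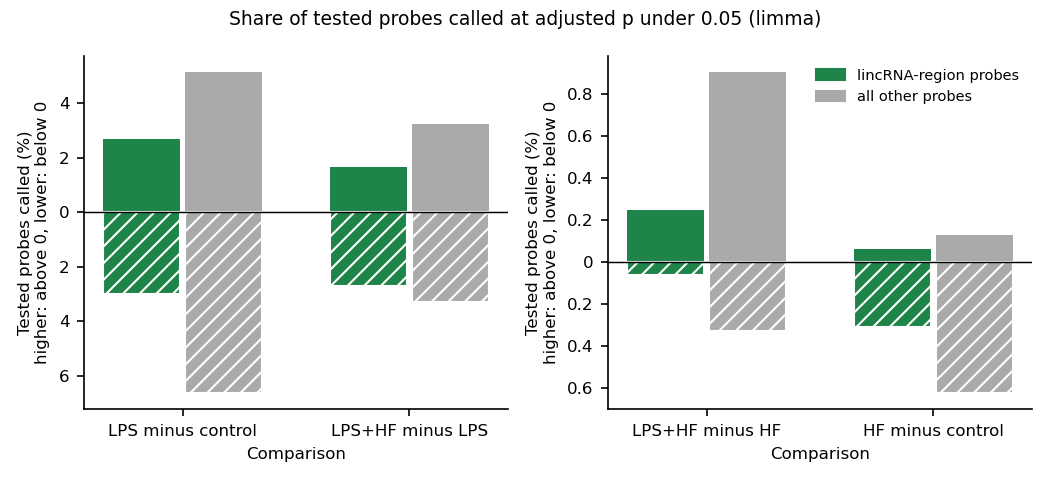
Percentage of tested probes called at an adjusted p under 0.05 by limma, for lincRNA-region probes (green) and all other probes (grey), in 4 comparisons; bars above 0 are rises and hatched bars below 0 are falls, and the panels have different scales. In LPS minus control 2.68% of the lincRNA-region probes rose and 2.99% fell, against 5.16% and 6.63% of the others.

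The call counts depended on single arrays and on the estimate of spread. LPS minus control had 679 calls without control replicate 1, 2556 without control replicate 2, 16 without LPS replicate 1, 9 without LPS replicate 2, 138 without either HF array and 135 without either LPS+HF array. With only the 4 arrays compared in the fit, 3 probes passed. The balance of directions moved with the scaling: 173 rises to 193 falls became 182 to 130 under quantile normalization and 85 to 20 when arrays were scaled to their median. The median scaling moved the median of all probes from -0.07 to 0.28 log2. The probes described next had the 8 largest fitted rises and the 8 largest fitted falls, an order that is not one of measured size where a group was below background. These 16 were chosen with the arrays of the 2 groups apart, so leaving out 1 array could not turn their direction. It also held under each scaling tried, which moved the median of all probes by less than these differences.

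Among rises with LPS, A_30_P01022435 on strand R of chr4:10407110-10724958 had levels of -6.35 and -6.45 in control, -2.07 and -1.79 in LPS, -6.37 and -4.81 in HF, and -2.69 and -3.41 in LPS+HF. It was above background on the LPS and LPS+HF arrays and on no control or HF array. Its LPS arrays stood at least 6.07-fold over control (log2 4.47 ± 0.51 SE, 2 arrays per group). "At least" sets the brighter group against the dimmest signal above background on the other arrays, which is not the probe's own limit, so it is approximate.

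A_30_P01020131, on strand R of chr17:56687541-56694631, had levels of -5.82 and -6.28 in control, -1.82 and -1.88 in LPS, -5.55 and -6.13 in HF, and -0.74 and -0.94 in LPS+HF. It was detected on all 4 arrays with LPS and on none without. LPS stood at least 6.41-fold over control (log2 4.20 ± 0.25), and LPS+HF at least 11-fold over HF (log2 5.00 ± 0.25). The probe entered the test through its LPS and LPS+HF arrays alone, so these values are a description.

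A short interval, chr1:85304494-85305390, had 3 probes on strand R, all called higher with LPS, and 2 of them were among the 8 with the largest fitted rises. A_30_P01022910 read -5.51 and -5.62 in control, -1.76 and -1.94 in LPS, -6.35 and -6.56 in HF, and -4.14 and -4.20 in LPS+HF. It was above background on both arrays of LPS alone, at least 6.41-fold over control, and on LPS+HF arrays it stood between the 2 extremes, with 1 of the 2 above background. A_30_P01024650 stood at least 7.82-fold over control in LPS (log2 2.98 ± 0.24) and fell 3.27-fold from LPS to LPS+HF (log2 -1.71 ± 0.24, limma adjusted p = 0.02).

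The other 4 of the 8 were spread over 3 intervals. A_30_P01032062 on strand F of chr3:96206303-96206871 read -6.68 and -6.28 in control, -2.58 and -3.10 in LPS, -6.34 and -6.54 in HF, and -6.42 and -5.02 in LPS+HF. It was above background in LPS alone, at least 3.23-fold over control and at least 3.48-fold over LPS+HF. A_30_P01033044 on strand R of chr11:97505439-97522274 rose at least 5.92-fold (log2 3.34 ± 0.33, limma adjusted p = 0.0054), and 4 probes of that interval rose. On chr6:57583950-57624216, strand F, A_30_P01025357 rose 6.97-fold (log2 2.80 ± 0.21) and A_30_P01025572 rose 6.70-fold (log2 2.74 ± 0.18), and both were above background on all 8 arrays. A_30_P01025572 read -2.15 and -2.21 in control, 0.46 and 0.67 in LPS, -2.53 and -2.25 in HF, and -0.69 and -0.94 in LPS+HF.

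The largest fitted fall with LPS, that of A_30_P01029733 on chromosome 18, rested on uneven controls, which read -0.95 on replicate 1 and -3.51 on replicate 2, against -6.06 and -5.63 in LPS. It was above background in control alone, at least 4.29-fold over LPS. A_30_P01021337 on strand F of chr2:36112819-36114110 read -2.76 and -4.02 in control, -6.63 and -6.34 in LPS, -3.33 and -3.55 in HF, and -5.68 and -6.77 in LPS+HF. It was lower on every array with LPS than on any array without it, though only 1 control array was above background (at least 1.92-fold lower with LPS, limma adjusted p = 0.019). A further probe of that interval and strand, A_30_P01018292, fell at least 1.31-fold with LPS (limma adjusted p = 0.02), again with 1 control array above background.

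On strand R of chr15:36800254-36809571, A_30_P01025315 read -2.47 and -3.16 in control, -5.41 and -5.21 in LPS, -2.65 and -2.77 in HF, and -4.52 and -4.05 in LPS+HF. It was at least 2.85-fold lower in LPS than in control (log2 -2.49 ± 0.28). A_30_P01021165 of the same strand fell at least 4.01-fold (1 control array above background, limma adjusted p = 0.03), but it passed in 1 of 8 fits without 1 array and had an adjusted p of 0.28 after correction for uneven brightness across the arrays. Of the remaining 4, A_30_P01031633 (chr10:120058696-120076196, R) was above background in control alone, at least 2.17-fold over LPS, and A_30_P01027389 (chr2:153163620-153170845, R) fell at least 2-fold. Both groups were measured for A_30_P01021541 (chr15:61984389-62102500, R), which fell 5.75-fold, and A_30_P01020369 (chr2:94082835-94101939, R), which fell 5.53-fold. A_30_P01021541 read -0.32 and -0.70 in control, -2.64 and -3.42 in LPS, -2.79 and -2.98 in HF, and -4.24 and -4.00 in LPS+HF, so that all 6 treated arrays lay below both control arrays.

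In 67 intervals 2 or more probes were called in the same direction with LPS, 29 of them higher and 38 lower, and 3 intervals held calls in both directions. The interval with the most calls was chr8:72663625-72673010, where 6 of 17 tested probes fell, 5 of them on strand F, and 16 of the 17 differences were negative. The 6 fell by 0.92 to 1.46 log2. A_30_P01021176 read 1.59 and 1.19 in control, 0.12 and 0.28 in LPS, 1.45 and 1.57 in HF, and 1.32 and 1.34 in LPS+HF. The LPS arrays were the 2 lowest of the 8, and it fell by 1.19 ± 0.18 log2 (limma adjusted p = 0.016). The 1 called probe on strand R, A_30_P01030756, had an adjusted p of 0.64 after the correction for uneven brightness.

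On chr1:107866276-107887102, 5 probes of strand R rose by 1.27 to 1.67 log2 with LPS. A_30_P01025660 read -1.93 and -1.83 in control, -0.54 and -0.48 in LPS, -2.18 and -2.28 in HF, and -2.00 and -1.67 in LPS+HF (log2 1.37 ± 0.16, limma adjusted p = 0.0083). The 2 tested probes on strand F differed by -0.18 and -0.09 log2 and did not pass (limma adjusted p = 0.53 and 0.88). On chr17:39960567-39992817, 5 probes on both strands rose by 0.93 to 1.42 log2. There A_30_P01028735, on R, read 3.49 and 3.88 in control, 5.09 and 5.12 in LPS, 3.44 and 3.40 in HF, and 3.76 and 3.54 in LPS+HF. A sixth probe of that interval, A_30_P01023888, fell by 0.68 ± 0.15 log2 (limma adjusted p = 0.043), from 8.13 and 8.14 in control to 7.41 and 7.49 in LPS. Probes of 1 interval thus did not all move in 1 direction, and the reason was not tested.

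Some called intervals lay side by side. Between chr19:5771425 and chr19:5848475, 10 probes of 5 intervals were called with LPS and all 10 rose, with a median of 1.31 log2. Between chr1:84961943 and chr1:85167730, 7 probes of 4 intervals rose, with a median of 1.90 log2. Between chr9:88333945 and chr9:88465751, 6 probes fell and 1 rose. These stretches, joined where called intervals lay within 100 kb, were chosen after their values were seen, and their intervals overlap in part.

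What HF does to LPS-stimulated cells, the question in the series title, was compared as LPS+HF minus LPS. Of the 6457 tested lincRNA-region probes, 108 rose and 175 fell with HF, 283 together (4.38%), in 199 intervals, where 6.05% of all tested probes were called (2.9% higher, 3.15% lower). Among probes outside the lincRNA regions 6.51% were called, 3.24% higher and 3.28% lower, whereas 1.67% of the lincRNA-region probes rose and 2.71% fell. Their median difference was -0.21 log2, against -0.07 over all probes. The arrays of the 2 groups did not overlap for 4271 (66.1%), against 73% of all probes. This comparison has the closest replicates, but shares its LPS arrays with LPS minus control, so a probe high in LPS tends to rise in one and to fall in the other.

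The split between directions held only in part. It was 99 rises to 81 falls under quantile normalization, 15 to 16 with median scaling, and 246 to 217 after the correction for uneven brightness. Leaving out 1 array gave 1279 for either control array, 0 for either LPS array, 60 for either HF array, 1 for LPS+HF replicate 1 and 0 for LPS+HF replicate 2. With only the 4 arrays compared, 1591 passed, among them all 283. Both groups were above background on both arrays for 215 of the 283. The 16 largest fitted rises and falls were likewise chosen with arrays apart, so leaving out 1 array could not turn their direction. They also kept it under each scaling tried, which moved the median of all probes by less than these differences.

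The largest fitted rise with HF in LPS-stimulated cells was that of A_30_P01019954, on strand F of chr17:47006033-47023558, with wide spread. It read -3.17 and -5.84 in control, -6.64 and -6.36 in LPS, -5.22 and -4.71 in HF, and -2.14 and -0.33 in LPS+HF. It was above background on both arrays of LPS+HF alone, at least 8.53-fold over LPS. A_30_P01020168, on strand F of chr14:70483555-70484159, read -5.03 and -4.06 in control, -6.05 and -6.35 in LPS, -2.73 and -2.70 in HF, and -1.69 and -1.93 in LPS+HF. All 4 HF arrays lay above all 4 others, and LPS+HF stood at least 5.73-fold over LPS (log2 4.39 ± 0.33). For A_30_P01021565 (chr4:12050675-12066450, R) LPS+HF stood at least 5.18-fold over LPS (log2 3.67 ± 0.68).

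In the interval chr2:153163620-153170845, 5 probes of strand R rose with HF, and the same 5 had fallen with LPS. A_30_P01017538 read -4.07 and -3.96 in control, -6.50 and -5.96 in LPS, -3.27 and -3.40 in HF, and -3.38 and -3.12 in LPS+HF. It was below background on both LPS arrays, and LPS+HF stood at least 2.12-fold over LPS (log2 2.98 ± 0.22). A_30_P01027389 read -3.46 and -3.20 in control, -5.67 and -6.08 in LPS, -3.17 and -3.28 in HF, and -3.44 and -3.00 in LPS+HF, at least 2.16-fold higher with HF (limma adjusted p = 0.0084). The LPS arrays were the 2 lowest for both probes. None of the 3 tested probes of strand F passed, with differences of -0.43, -0.42 and -0.40 log2 (limma adjusted p = 0.24, 0.25 and 0.51).

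A similar order was seen on chrX:90997595-91009570, strand R, where 5 probes rose from LPS to LPS+HF. A_30_P01025876 read -3.32 and -2.92 in control, -4.70 and -4.60 in LPS, -2.06 and -1.94 in HF, and -2.15 and -2.31 in LPS+HF. It rose at least 4.29-fold from LPS (log2 2.42 ± 0.18, limma adjusted p = 0.0071), and 4 of the 5 had fallen with LPS. On chr11:95627874-95640824, 4 probes on both strands rose by 0.89 to 1.47 log2, and all 15 tested probes there had positive differences. A_30_P01026834 (chr11:55315017-55322092, R) read -2.71 and -2.71 in control, -3.89 and -3.63 in LPS, -1.77 and -1.61 in HF, and -1.06 and -1.85 in LPS+HF, and rose 4.93-fold (log2 2.30 ± 0.28, limma adjusted p = 0.015).

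**Figure D3:**
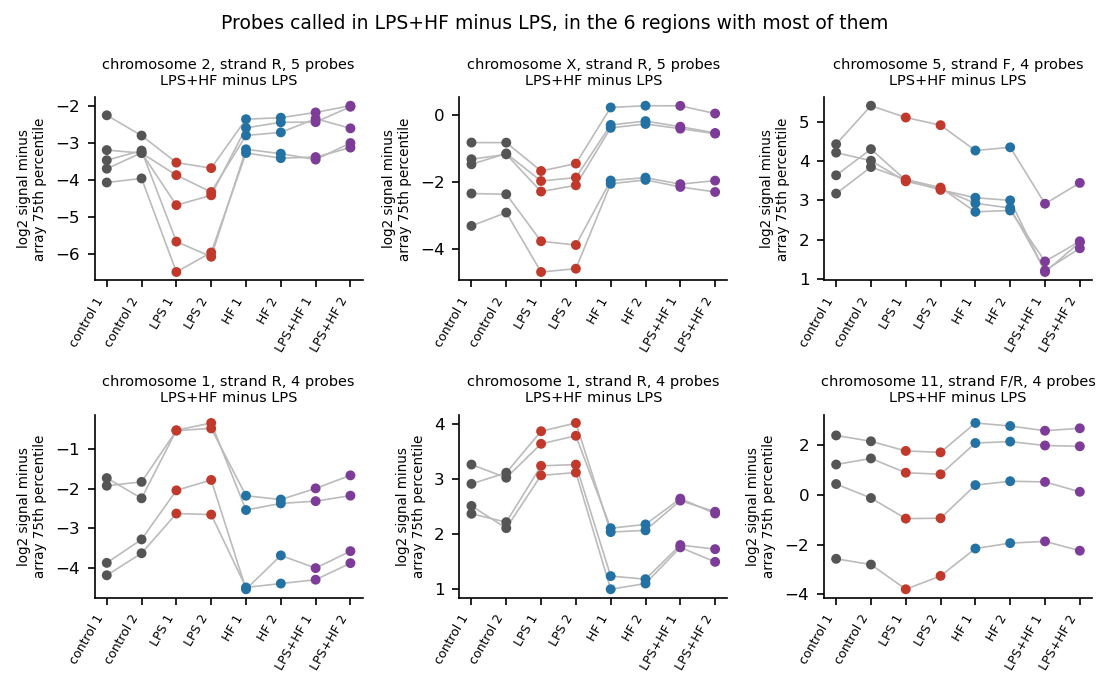
Levels on the 8 arrays (log2 signal minus the array's 75th percentile) of the probes called in LPS+HF minus LPS, in the 6 intervals with the most such probes; each grey line joins the values of 1 probe and serves the eye only, since arrays have no order. On chromosomes 2 and X the LPS arrays are the lowest for every probe shown, and in the second panel of chromosome 1 every HF array is below every array without HF.

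Among falls with HF, A_30_P01031618 (chr1:138528250-138538250, F) read -4.51 and -6.10 in control, -3.69 and -3.63 in LPS, -6.14 and -6.29 in HF, and -6.55 and -6.69 in LPS+HF. It was above background in LPS alone, at least 1.98-fold over LPS+HF. A_30_P01033463 (chr15:39876736-39960528, F) read -3.47 and -3.44 in control, -2.00 and -2.00 in LPS, -6.13 and -4.53 in HF, and -4.74 and -4.98 in LPS+HF. LPS stood at least 6.22-fold over LPS+HF (log2 -2.86 ± 0.48 for LPS+HF minus LPS), and all 4 HF arrays lay below the 4 others.

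On chr1:85036677-85038530, strand R, both probes of the interval were above control in LPS and below it in HF. A_30_P01027573 read -2.42 and -2.23 in control, -0.12 and -0.35 in LPS, -4.03 and -4.37 in HF, and -2.91 and -3.31 in LPS+HF. From LPS to LPS+HF it fell 7.34-fold (log2 -2.88 ± 0.21, limma adjusted p = 0.0071). Its neighbour A_30_P01019184 fell 5.71-fold in that comparison (log2 -2.51 ± 0.23, limma adjusted p = 0.0091). Of the other large falls, A_30_P01032062 has been described with LPS. On both of its arrays LPS alone was above background for the last 4 of them. There LPS stood over LPS+HF at least 2.27-fold for A_30_P01022936 (chrX:65756325-65757543, F), 3.19-fold for A_30_P01021827 (chr1:84961943-84962737, F), 1.85-fold for A_30_P01025645 (chrX:75813213-75829323, R) and 2.72-fold for A_30_P01019564 on chromosome 18.

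Bright intervals fell as well. On chr5:35975265-35982561, 4 of the 8 probes tested on both strands fell by 1.72 to 1.89 log2, all 4 on strand F. All 8 differences were negative. A_30_P01022310 read 4.22 and 4.01 in control, 3.48 and 3.29 in LPS, 2.93 and 2.81 in HF, and 1.22 and 1.78 in LPS+HF, where both arrays were the lowest (log2 -1.89 ± 0.22, limma adjusted p = 0.014). On chr1:175654606-175672031, 4 of the 10 probes tested on both strands fell by 1.21 to 1.49 log2, all 4 on strand R. All 10 differences were negative. A_30_P01021838 read 2.36 and 2.21 in control, 3.24 and 3.26 in LPS, 1.23 and 1.17 in HF, and 1.79 and 1.72 in LPS+HF. It was highest on the LPS arrays and passed in 3 comparisons: higher with LPS (log2 0.96 ± 0.14, limma adjusted p = 0.014), lower with HF (log2 -1.09 ± 0.14, limma adjusted p = 0.039) and lower with HF beside LPS (log2 -1.49 ± 0.14, limma adjusted p = 0.0093).

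In the stretch of chromosome 19 described above, 10 probes of 4 intervals between chr19:5795690 and chr19:5835940 were called from LPS to LPS+HF. All 10 fell, with a median of -2.01 log2. On chr17:39960567-39992817 and its overlapping intervals, all 8 called probes fell. Between chr5:22887983 and chr5:22939658, 7 probes of 3 intervals rose, with a median of 1.35 log2. These stretches too were chosen after their values were seen.

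HF alone moved few lincRNA-region probes past the threshold. In HF minus control 4 rose and 20 fell, 24 of 6457 (0.372%), in 21 intervals, where 0.682% of all tested probes were called (0.125% higher, 0.557% lower) and 0.752% of those outside the lincRNA regions. The median difference was -0.18 log2, against -0.06 over all probes, and the arrays did not overlap for 2595 (40.2%), against 45.7% of all probes. Scaling to the array median moved the median of all probes to 0.33 log2 and left 0 calls, and quantile normalization gave 5 rises and 9 falls. The correction for uneven brightness gave 16 rises and 33 falls. There were 95 calls without control replicate 1, 2210 without control replicate 2, 1 without either LPS array, 2 without HF replicate 1, 16 without HF replicate 2 and 1 without either LPS+HF array. The probes called without either HF array or either LPS+HF array were not among the 24, so those counts do not show calls that held. With only the 4 arrays compared, none passed by limma, where 491 had an unadjusted p under 0.05.

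All 4 rises were of moderate size, and none passed after the correction for uneven brightness. A_30_P01020533, on strand F of chr9:106170918-106177894, read -1.87 and -1.75 in control, -0.12 and 0.20 in LPS, 0.34 and -0.27 in HF, and -0.14 and -0.22 in LPS+HF. It was lower on both control arrays than on the 6 others (log2 1.85 ± 0.24, limma adjusted p = 0.042, and 0.069 after that correction). A_30_P01025177 (chr13:62580825-62596425, R), A_30_P01027090 (chr17:6806500-6861042, F) and A_30_P01031244 on chromosome 18 rose 3.01-fold, 2.92-fold and at least 2.07-fold, with adjusted p of 0.1, 0.11 and 0.082 after it. The first 2 had 1 control array above background. These 4 also rose in LPS minus control, which uses the same control arrays.

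The largest fitted fall with HF was that of A_30_P01026639, on strand R of chr13:19611679-19620954. It read -3.11 and -3.07 in control, -4.58 and -5.82 in LPS, -6.32 and -6.66 in HF, and -6.49 and -6.59 in LPS+HF, above background on the control arrays only. Control stood at least 2.32-fold over HF. A_30_P01027263 (chr10:96082444-96096696, R) read -3.52 and -3.91 in control, -2.93 and -3.28 in LPS, -6.23 and -6.33 in HF, and -3.54 and -3.84 in LPS+HF. It was low in HF alone, at least 1.49-fold below control (log2 -2.56 ± 0.22, limma adjusted p = 0.019), with 1 of the 2 control arrays above background.

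Both probes on chr1:85036677-85038530 fell, A_30_P01019184 by 4.98-fold (log2 -2.32 ± 0.23, limma adjusted p = 0.024) and A_30_P01027573 at least 3.66-fold (limma adjusted p = 0.031). A_30_P01019184 read -1.07 and -1.39 in control, 0.68 and 0.67 in LPS, -3.79 and -3.31 in HF, and -1.70 and -1.99 in LPS+HF, and its 4 groups did not overlap. On chr9:65368908-65377592, strand R, 2 of 3 probes fell, by 1.85 and 1.87 log2. A_30_P01020239 there read -1.19 and -1.74 in control, -2.09 and -2.18 in LPS, -3.19 and -3.48 in HF, and -2.81 and -2.99 in LPS+HF (adjusted p = 0.035 by limma, and 0.056 after the correction for uneven brightness). The other large falls were A_30_P01021541, described with LPS, A_30_P01028723 (chr3:50320320-50411144, R, log2 -2.02, with 1 HF array above background) and A_30_P01021412 (chr9:88581073-88614403, R, at least 1.97-fold).

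On chr6:129151512-129208737, strand R, 2 probes fell with HF by 1.26 and 1.27 log2 and rose with LPS in the presence of HF. A_30_P01025159 read -2.18 and -2.30 in control, -2.56 and -2.40 in LPS, -3.58 and -3.43 in HF, and -1.70 and -1.57 in LPS+HF. Its HF arrays were the lowest of the 8 and its LPS+HF arrays the highest, with log2 -1.26 ± 0.15 for HF minus control (limma adjusted p = 0.034, and 0.2 after the correction for uneven brightness). These 2 comparisons share the HF arrays.

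**Figure D4:**
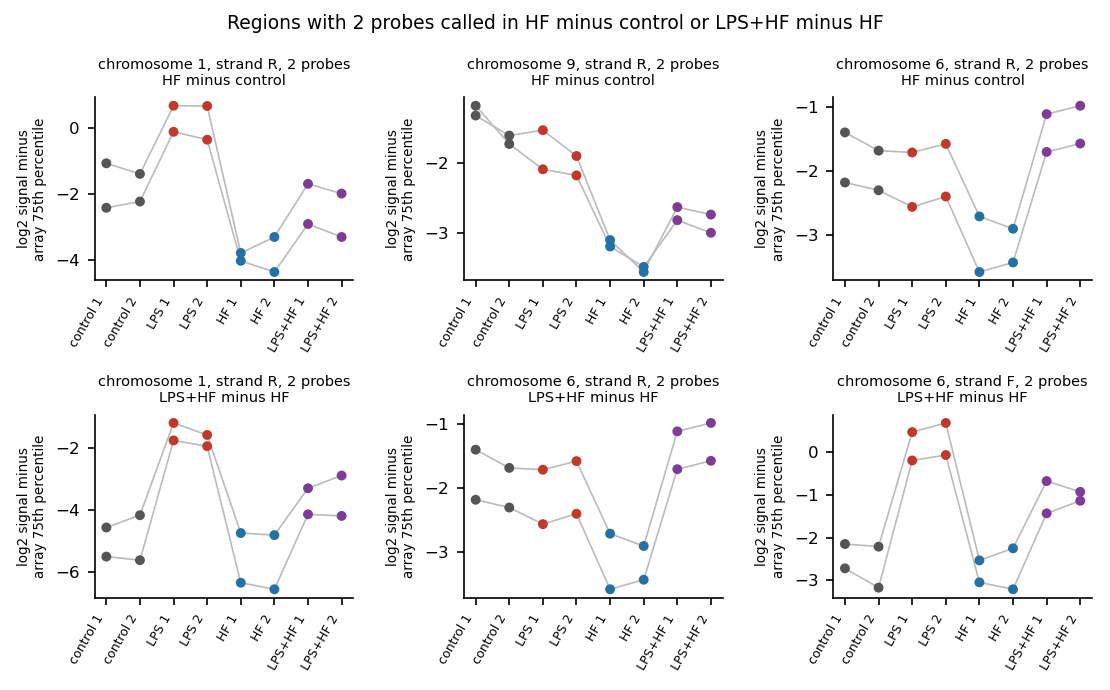
Levels on the 8 arrays (log2 signal minus the array's 75th percentile) of the probes called in intervals with 2 calls in HF minus control (top) or LPS+HF minus HF (bottom); grey lines join the values of 1 probe and imply no order. On chromosome 6, strand R, which stands in both rows, the HF arrays are lowest and the LPS+HF arrays highest for both probes.

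LPS in the presence of HF was tested as LPS+HF minus HF. Here 16 of the 6457 lincRNA-region probes rose and 4 fell (0.31%), in 17 intervals, where 1.06% of all tested probes were called (0.765% higher, 0.297% lower) and 1.24% of those outside the lincRNA regions. The median difference was -0.11 log2, against -0.08 over all probes, and the arrays did not overlap for 2809 (43.5%), against 52.3%. Leaving out 1 array gave 101 for either control array, 4 for either LPS array, 6 for HF replicate 1, 31 for HF replicate 2, 2 for LPS+HF replicate 1 and 6 for LPS+HF replicate 2. Without either HF array, most of the calls were of probes not called in the full fit. Under quantile normalization 12 rose and 0 fell.

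The 4 largest fitted rises were those of A_30_P01020131, A_30_P01027263, A_30_P01022910 and A_30_P01025159, all described above. A_30_P01027263 stood at least 1.52-fold higher in LPS+HF than in HF. A_30_P01022910 rose at least 1.09-fold, with 1 LPS+HF array above background (limma adjusted p = 0.0035). A_30_P01025159, measured on all 8 arrays, rose 3.65-fold (log2 1.87 ± 0.15, limma adjusted p = 0.006). Among the 4 falls, A_30_P01018128 on strand R of chr19:36699712-36763966 read 0.43 and 1.07 in control, -1.68 and -1.53 in LPS, -0.63 and -0.57 in HF, and -2.15 and -2.32 in LPS+HF. It was lower on all 4 arrays with LPS, by 1.63 ± 0.23 log2 in the presence of HF (limma adjusted p = 0.04) and by 2.36 ± 0.23 without it (limma adjusted p = 0.0053). A_30_P01018292, above background on both arrays of HF alone, was at least 1.73-fold lower in LPS+HF. A_30_P01030751 (chr7:71093563-71095094, F) fell 2.71-fold (limma adjusted p = 0.034) and A_30_P01023462 (chr3:108763862-108772151, R) fell 3.25-fold (limma adjusted p = 0.049, and 0.051 after the correction for uneven brightness).

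LPS minus control and LPS+HF minus HF share no array, so one can be read beside the other. Of the 173 lincRNA-region probes that rose with LPS, 150 (86.7%) were also higher in LPS+HF than in HF, and 9 of them passed there. Of all tested lincRNA-region probes with a positive LPS difference, 45.6% were. Their median was 1.23 log2 without HF and 0.36 log2 with it. Of the 193 that fell, 154 (79.8%) were also lower, against 73.1% of all with a negative difference, with medians of -1.08 and -0.22 log2. Probes chosen for a large difference in one comparison tend to show a smaller one in another, so the drop in the medians is a description.

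HF minus control and LPS+HF minus LPS share no array either. Of the 108 that rose from LPS to LPS+HF, 91 (84.3%) were higher in HF than in control, against 51.0% of all tested lincRNA-region probes with a positive difference, and none of the 108 passed as a rise there. Of the 175 that fell, 155 (88.6%) were lower, against 72.2%, and 9 passed. Their medians were -1.21 log2 beside LPS and -0.58 log2 with HF alone.

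**Figure D5:**
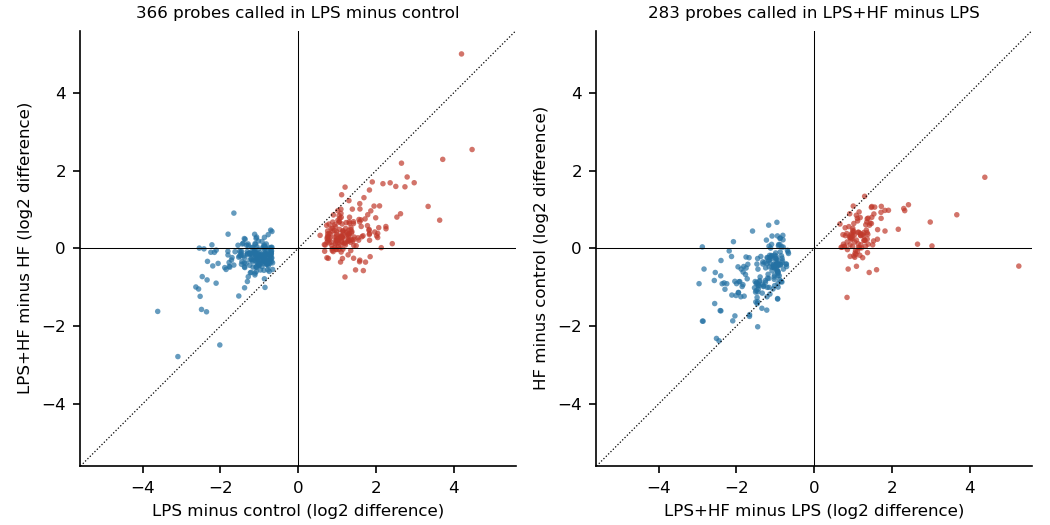
Log2 differences of called lincRNA-region probes in the comparison that called them (horizontal) and in the comparison with the same treatment step and no shared array (vertical); red points rose and blue points fell, and the dotted line marks equal values. Of the 173 rises with LPS at the left, 150 lie above 0 on the vertical axis, and of the 175 falls at the right, 155 lie below 0.

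Whether the LPS difference itself changed with HF is the interaction of LPS and HF. None of the 6457 lincRNA-region probes passed by limma, where 0.0527% of all tested probes did (0.0132% higher, 0.0395% lower). The lack of calls does not show that no probe changed, since a fit with 2 arrays per group can miss changes. An unadjusted p under 0.05 was seen for 589. Without control replicate 1 there were 10 calls, without control replicate 2 there were 1647, and leaving out any other array gave 0. After the correction for uneven brightness 1 passed, A_30_P01031618, which was above background in LPS alone. Some of the largest values came from uneven pairs of arrays. A_30_P01024441 (chr12:76759861-76760240, R) read 7.59 and -1.35 on the HF arrays, with -1.44 to 0.03 on the 6 others, and its interaction was -3.93 ± 3.65 log2 (limma adjusted p = 0.68). A_30_P01022056 (chr10:5956284-5956943, R) read 5.04 and -2.60 in HF, with an interaction of -3.83 ± 3.12 log2.

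Named long non-coding RNAs were measured on the same arrays by other probes. Of 38 symbols listed, 25 were on the array and 20 were tested, with 49 probes. Mirt2, a long RNA known to be induced by LPS in macrophages, read -6.78 and -6.24 in control, -2.67 and -2.41 in LPS, -6.37 and -6.62 in HF, and -6.45 and -6.64 in LPS+HF. LPS stood at least 3.97-fold over control, and at least 4.28-fold over LPS+HF, neither of which was above background. Mirt2 entered the test through its LPS arrays alone, so the filter fixed part of these differences and of its calls below.

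In LPS minus control 1 of the 49 probes was called higher (Mirt2) and 1 lower, where 10.5% of all tested probes were called, the latter for Dancr, a host of small RNAs (log2 -0.93 ± 0.14, limma adjusted p = 0.017). In LPS+HF minus LPS, where 6.05% of all tested probes were called, 1 rose, for Dancr (log2 1.08 ± 0.14, limma adjusted p = 0.019), and 5 were lower: those of Mirt2 and Snhg15 (log2 -0.99) and 3 of 6 probes of Neat1, the RNA that builds nuclear paraspeckles (log2 -1.06, -0.97 and -0.93). One Neat1 probe read 2.48 and 2.52 in control, 2.84 and 2.91 in LPS, 1.29 and 1.24 in HF, and 1.76 and 2.12 in LPS+HF, lower on all arrays with HF. It was the only listed probe to pass in HF minus control (log2 -1.24 ± 0.17, limma adjusted p = 0.046), and none passed in LPS+HF minus HF by limma. For the interaction 1 passed, that of Mirt2, which restates that it was above background in LPS alone and is given as a description. The list's median difference was 0.20 log2 for LPS minus control and -0.27 for LPS+HF minus LPS, against -0.07 in both over all probes.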

How the data were processed

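RNA of 8 BV-2 samples, 2 per group, was labelled with Cy3 and read on single-colour Agilent arrays of 1 slide. Per the file headers, the deposited intensity of each spot came from Agilent Feature Extraction 11.5.1.1, background-subtracted and corrected for trends across the array. The deposited log2 matrix was made by the authors from these signals; recomputing gave the array's 75th percentile as scale and each probe's median as centre. No probe sequences or mm9 genome were used here, so no sequence or gene is given for an interval. The probes and lists were chosen with earlier results of these data known.

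Processed signals were converted to log2 minus the array's 75th percentile. The 30344 probes that any group showed well above background on both its arrays were fitted with limma 3.58.1 in R 4.3.3 as group means over all 8 arrays, with 4 residual and 2.09 prior degrees of freedom. A two-sided limma p under 0.05 after Benjamini-Hochberg adjustment over all 30344 made a call. Where both arrays of the dim group were below background, the fold is a bound against the lowest signal above background on those arrays. Named are the 8 rises and 8 falls largest by fitted difference that passed with arrays apart (4 and 4 for LPS+HF minus HF and the interaction), and up to 6 intervals with the most calls. Where fewer than 3 passed, the 3 largest are values.

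Alternatives were normexp correction (offset 50, on median brightness, as mean brightness was not used), quantile normalization, median scaling, the authors' matrix, other filters, 1 probe per name, a trended robust variance, a replicate block, only the arrays compared, a correction for uneven brightness in windows of 30 rows by 15 columns of spots, and leaving out each array, whose partner was then assumed to vary like the others. With 1 slide, no slide block was run. The fitting script was tested on simulated data with known answers, with the same spread for all probes of a group. There it found 0% of 2-fold, 49.2% of 4-fold, 96% of 8-fold and 100% of 16-fold changes in LPS+HF minus LPS. Python 3.11.15, numpy 2.4.6, pandas 2.3.3 and matplotlib 3.10.9 were used. Precision is limited by the number of arrays.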

Additional observations from a re-analysis of the deposited data

Results flagged for a closer look

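Of the lincRNA-region probes, 91 were left aside because both arrays of HF or of LPS+HF, but not both arrays of control or LPS, were above background. They lay in spot rows 1 to 70, where they were 3.1% of the lincRNA-region probes. The same pattern was seen for 349 probes (2.6%) in the other rows. Both HF arrays were above background for 70 of them, both LPS+HF arrays for 37 and all 4 for 16. At least 1 array without HF was above background for 50 of the 91 and none for 41. Slide position and HF cannot be told apart.

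For 2 of the 91 the interaction of LPS and HF was past the threshold. Both had been chosen for being bright with HF and were above background on the HF arrays only, so their interactions restate that choice and are given as values. A_30_P01024126, on strand R of chr11:55315017-55322092, read -6.43 and -6.46 in control, -6.68 and -6.38 in LPS, -2.29 and -2.44 in HF, and -6.66 and -6.79 in LPS+HF. Its fitted interaction was -4.27 log2, with 3 of its 4 terms below background. A_30_P01026834, from the same strand of that interval, read -1.77 and -1.61 in HF and -1.06 and -1.85 in LPS+HF, so its LPS+HF arrays were not dim. A_30_P01023351, on strand R of chr9:56910620-56919495, read -3.09 and -2.56 in HF and between -6.78 and -6.38 on the other 6 arrays. Its fitted interaction was -3.80 log2, again with 3 terms below background.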

How the results depend on the processing

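For the counts of called lincRNA-region probes, the authors' matrix, a trended robust variance and probes above background on all 8 arrays stayed within 1.5 times in all comparisons. The following did not; counts stand in the order LPS against control, HF against control, LPS+HF against LPS and LPS+HF against HF. Normexp with quantile normalization gave 92, 0, 27 and 1 calls, median scaling 105, 0, 31 and 8, no filter on dim probes 70, 0, 12 and 4, and 1 probe per name 145, 8, 121 and 7. Quantile normalization gave 14, 180 and 12 in the last 3. Only the arrays compared gave 3, 0 and 1591 in the first 3. The correction for uneven brightness gave 49, 463 and 37 in the last 3, and 1 for the interaction. With the 91 probes counted, the interaction had 3 calls with that correction and 2 without it. Leaving out 1 array gave 9 to 2556 calls in LPS minus control, 1 to 2210 in HF minus control, 0 to 1279 in LPS+HF minus LPS, 2 to 101 in LPS+HF minus HF and 0 to 1647 for the interaction. The cause of these moves was not tested, apart from the number of probes tested, which the filters and 1 probe per name change by construction. Similar counts did not mean the same probes. In that order, the filter for all 8 arrays kept 247 of 366, 13 of 24, 187 of 283 and 12 of 20 calls.

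The replicate block gave 223, 1, 127 and 11 calls, and 1 in HF minus control with the correction for uneven brightness. Over probes, the differences of replicate 1 from replicate 2 correlated between -0.07 and 0.23 across pairs of groups, highest for control with HF. The labels do not say whether same-numbered arrays belong together, and these values do not settle it. The laxer flag of the scanner software for a signal above background gave 8755 probes in control, 9759 in LPS, 9437 in HF and 9451 in LPS+HF. Of the 366 probes called in LPS minus control, 14 changed direction with normexp and quantile normalization, and 64 were still called. Among the probes named above, A_30_P01030756 changed direction there (0.004 log2). A_30_P01024441 did so in the interaction without HF replicate 1 (0.54 log2, range over the 8 such fits -8.40 to 0.54).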
